A study of Mus musculus with 11 samples.

Results

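The 10 genes described here encode receptors, ligands, the nuclear effector and targets of the Notch pathway in mouse splenic dendritic cells: Notch1, Notch2, Notch4, Dll1, Dll4, Jag1, Jag2, Rbpj, Hes1 and Dtx1. They were taken by name from the 22180 genes measured, each as the probeset that names that gene alone and has the highest mean over all 11 arrays. All 10 were found. They were chosen by pathway, and selected on log2 values of lymphoma-exposed against naive arrays in so far as earlier results of that comparison were known. Their values in that comparison are therefore a description and not evidence for a change in the pathway.

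The exposed group holds 5 arrays of dendritic cells from C57BL/6 mice that had received Eµ-Myc lymphoma cells, a B cell lymphoma driven by a Myc transgene under the immunoglobulin heavy chain enhancer. The naive group holds 6 arrays of the same cells from C57BL/6 mice without lymphoma. Both were sorted from spleen as CD11c+ MHC class II+ cells at over 95% purity. The mean tumour load of the lymphoma mice is given as 10 to 36% of the lymphocytes in the spleen. No further allele or agent is given for either group, nor an age or sex. Separate mice for the arrays are not stated, so p-values measure only the spread between these samples, which may be technical. Values are log2 expression from 1-colour Affymetrix arrays, 1 array per sample, and the number of arrays limits the precision.

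Notch receptors are cell surface proteins that are cut after binding a ligand on a neighbouring cell. The freed intracellular part enters the nucleus, joins the DNA-binding protein RBPJ and turns on targets such as Hes1 and Dtx1. In the mouse spleen, NOTCH2 and RBPJ are known to maintain a subset of type 2 conventional dendritic cells that carries the adhesion molecule ESAM, and Delta-like ligands are known on stromal cells, endothelium and activated myeloid cells.

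The sort marker gene Itgax, which encodes CD11c, averaged 11.98 ± 0.13 (SD, n = 5) in exposed and 12.11 ± 0.08 (SD, n = 6) in naive cells. All 4 conventional dendritic cell markers measured had negative differences, beside 10306 of all 22180 genes, and none passed. These were Itgax (-0.14), Zbtb46 (-0.12), Flt3 (-0.07) and H2-Ab1 (-0.05). Their list means ran from 11.44 to 11.63 in exposed and from 11.56 to 11.67 in naive arrays. Exposed arrays 1, 2 and 3 (11.44, 11.49 and 11.48) lay below all naive arrays. Markers of type 1 conventional cells averaged between 10.61 and 10.90 per array in exposed and between 10.61 and 10.93 in naive cells. Markers of type 2 conventional cells averaged between 9.78 and 10.06 in exposed and between 10.10 and 10.34 in naive arrays, without overlap. Of the 5 genes 2 fell, beside 0.546% of all genes: Cd209a by 1.02 on the log2 scale (limma adjusted p = 0.00345) and Clec4a4 by 0.43. Both had all exposed arrays below all naive ones, beside 0.875% of all genes. Irf4 (-0.22), Esam (-0.09) and Sirpa (0.06) did not pass. T cell and neutrophil marker lists had no gene whose mean passed the mark for dim genes, which is the 95th percentile of 1105 olfactory receptor genes (5.60). T cell list means still ran from 5.14 to 5.47 in exposed and from 5.07 to 5.22 in naive arrays. Of these differences 3 of 4 were positive and none passed. Cd3g (0.34) and Cd3e (0.25) each had 4 exposed arrays above all naive ones, Cd3e also 1 below them, and Cd3d differed by -0.07. Neutrophil list means ran from 4.36 to 4.73 in exposed and from 4.29 to 4.51 in naive arrays. B cell markers, the lineage of the lymphoma, lay above that mark for 5 of 5 genes, with list means from 7.18 to 7.65 in exposed and from 7.12 to 7.47 in naive arrays; 4 of 5 differences were positive and none passed. Plasmacytoid cell markers did so for 5 of 5 genes, with list means from 8.06 to 8.33 in exposed and from 7.99 to 8.39 in naive arrays. Red pulp macrophage markers were detected, with 8 of 8 genes above that mark and list means from 9.36 to 11.18 in exposed and from 8.64 to 9.90 in naive arrays. Exposed arrays 1 and 2 had the highest of these means. Arrays numbered 1 to 3 in the titles differed from arrays numbered 4 to 6 in 731 of 22180 genes (3.3%) in limma (group as a covariate). That difference was fitted over both groups together, and each group alone was not tested.

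Of the 10 genes, Dll4 was the one whose exposed and naive arrays did not overlap. It was 1.50-fold higher in exposed cells, while the receptors, the other ligands, Rbpj and both targets overlapped between the groups. Differences were positive for 4 genes (Notch1, Dll1, Dll4, Jag2) and negative for 6 (Notch2, Notch4, Jag1, Rbpj, Hes1, Dtx1). Groups without overlap were thus seen for 1 of 10 genes and 2.29% of all genes, and exposed arrays all under the naive ones for 0 of 10 and 0.875%. In the limma fit over all genes, 1 of 10 had an adjusted p under 0.05, where 1.42% of all genes did (0.879% higher and 0.546% lower). Blocking on the number set also gave 1 of 10, against 2.78% of all genes. At an unadjusted p under 0.05 there were 2 of 10, against 12.2% of all genes. The median difference of the 10 was -0.03, and that of all genes was 0.01. All 10 had a mean over the 11 arrays above the mark for dim genes, Dll1 only just, with 5.68 in exposed and, under the mark, 5.56 in naive cells.

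**Figure D1:**
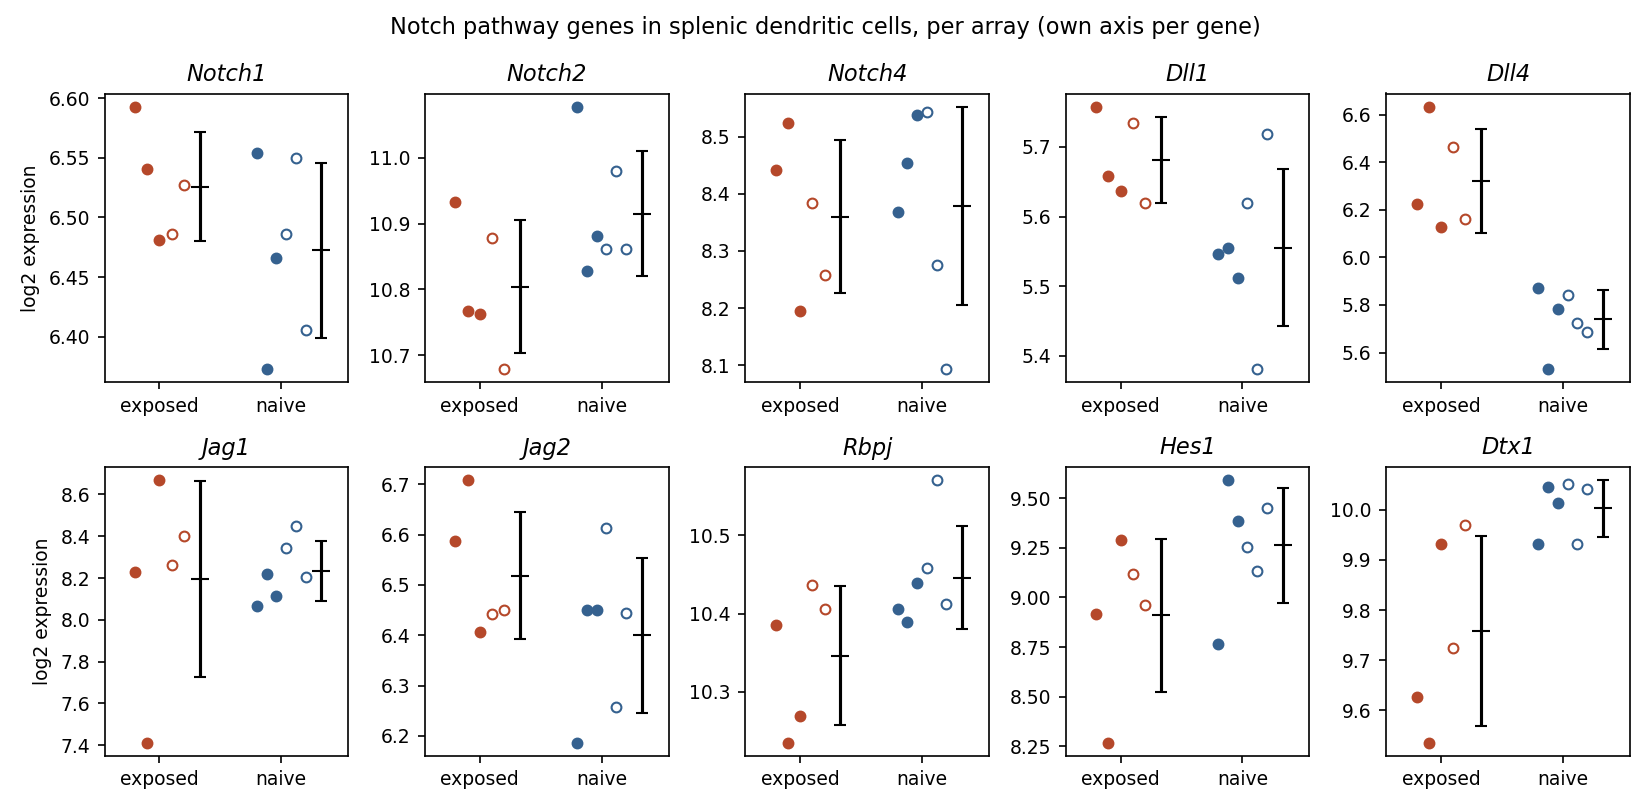
Log2 expression (y axis, a separate scale for each gene) of the 10 Notch pathway genes on each exposed (red, left) and naive (blue, right) array; filled circles are arrays numbered 1 to 3, open circles arrays numbered 4 to 6, and bars show the mean ± SD. The 5 exposed arrays of Dll4 lie between 6.13 and 6.63, above all 6 naive arrays, and the groups overlap for the other genes.

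Notch2 encodes the receptor that splenic type 2 dendritic cells are known to depend on. It was measured at 10.93, 10.77, 10.76, 10.88 and 10.68 in exposed arrays 1, 2, 3, 4 and 6, against a lowest value of 10.83, a median of 10.87 and a highest value of 11.08 in naive arrays. Of the 5 exposed arrays, 3 lay below all naive arrays and the other 2 lay within the naive range. The difference was -0.11 ± 0.06 (SE; 95% limits -0.24 to 0.01). It was -0.11 among arrays 1 to 3 and -0.12 among arrays 4 to 6. Of the type 2 markers, Cd209a and Clec4a4 fell, while Irf4 (-0.22), Esam (-0.09) and Sirpa (0.06, with 3 exposed arrays above all naive ones) did not pass; their part in the value of Notch2 was not tested.

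Notch1, the receptor best known for T cell fate, was measured at 6.59, 6.54, 6.48, 6.49 and 6.53 in exposed arrays 1, 2, 3, 4 and 6, against naive values from 6.37 to 6.55 with a median of 6.48. Its difference was 0.05 ± 0.05 (SE; 95% limits -0.06 to 0.17). Notch1 was also the steadiest of the 10 within groups: its within-group SD of 0.06 was larger than that of 7.01% of the 12619 genes above the dim mark. Notch4, known mainly from endothelium, ran from 8.19 to 8.52 in exposed and from 8.09 to 8.54 in naive arrays. The groups overlapped throughout, with means of 8.36 ± 0.13 (SD, n = 5) in exposed and 8.38 ± 0.17 (SD, n = 6) in naive cells. The sign of its difference, -0.02, turned among arrays 4 to 6 (0.02).

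Dll4 encodes a Delta-like ligand that antigen-presenting cells are known to raise after microbial signals and that endothelium expresses. Exposed arrays 1, 2, 3, 4 and 6 gave 6.22, 6.63, 6.13, 6.46 and 6.16, against a lowest value of 5.53, a median of 5.75 and a highest value of 5.87 in naive arrays. Exposed array 2 was the highest and naive array 2 the lowest, and the groups did not overlap. The same order, every exposed value over every naive one, held for 1.42% of genes. The means were 6.32 ± 0.22 (SD, n = 5) in exposed and 5.74 ± 0.12 (SD, n = 6) in naive cells, a difference of 0.58 ± 0.10 (SE; 95% limits 0.37 to 0.79; limma adjusted p = 0.0132 over all genes, given as a description of this fit). The naive level lay near the dim mark of 5.60.

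The difference of Dll4 was 0.60 among arrays 1 to 3 and 0.56 among arrays 4 to 6. It was 0.51 when exposed arrays 1 and 2 were left out together (limma adjusted p = 0.0498), an alternative chosen after the data had been seen. Leaving out single arrays gave 0.50 to 0.63 and kept it past the threshold each time. With the replicate number of the characteristics as a block it was 0.57 and missed the threshold (limma adjusted p = 0.0577), while with the number of the titles it passed at 0.58 (adjusted p = 0.0435).

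Endothelial markers are relevant to Dll4 and Notch4. Of 7 such genes 3 had a mean above the dim mark, and the list mean ran from 5.93 to 6.36 in exposed and from 5.88 to 6.07 in naive arrays. Exposed array 4 had the highest list mean. Of these 3, Cdh5 averaged 7.15 in exposed and 6.81 in naive cells (difference 0.35, limma adjusted p = 0.488; 0.26 among arrays 1 to 3 and 0.52 among arrays 4 to 6). Pecam1 averaged 9.53 in exposed and 9.69 in naive cells (-0.16, 0.235), with 3 exposed arrays below all naive ones, and Egfl7 differed by 0.07. Emcn (3.64 in exposed and 3.56 in naive cells), Tek (5.00 and 4.92, in the same order), Robo4 and Tie1 stayed under the mark. Of the 7 genes 0 passed, beside 1.42% of all genes. With the endothelial list mean as a covariate the difference of Dll4 was 0.52 (limma adjusted p = 0.0303), and with that of the red pulp macrophage markers it was 0.59 (adjusted p = 0.0331). The endothelial mean joins genes under the mark with Cdh5 and Pecam1, which differed in opposite directions, so it measures endothelial content poorly. The part of endothelium or macrophages in the value of Dll4 was not tested. In a bulk sample, more or fewer cells of a type cannot be told apart from more or less RNA per cell.

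Dll1, the Delta-like ligand of the stromal niche in the spleen, was measured at 5.76, 5.66, 5.64, 5.73 and 5.62 in exposed arrays 1, 2, 3, 4 and 6, against naive values from 5.38 to 5.72 with a median of 5.55. Exposed arrays 1 and 4 exceeded every naive value, and the difference was 0.13 ± 0.06 (SE; 95% limits -0.01 to 0.26). Its second probeset gave 0.10 ± 0.07 (SE). Jag2, a Serrate-type ligand, ran from 6.41 to 6.71 in exposed and from 6.19 to 6.61 in naive arrays, a difference of 0.12 ± 0.08 (SE). That difference was 0.20 among arrays 1 to 3 and 0.01 among arrays 4 to 6, and the limma interaction term for it had an unadjusted p of 0.267.

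Jag1, the other Serrate-type ligand, gave 8.23, 7.41, 8.67, 8.26 and 8.40 in exposed arrays 1, 2, 3, 4 and 6, against naive values from 8.07 to 8.45 with a median of 8.21. Exposed array 2 was the lowest of all 11 arrays and exposed array 3 the highest. The spread was 0.47 (SD, n = 5) in exposed and 0.14 (SD, n = 6) in naive cells, around means of 8.20 in exposed and 8.23 in naive cells. The difference of -0.04 ± 0.17 (SE; 95% limits -0.40 to 0.33) turned to 0.16 without exposed array 2.

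Rbpj encodes the DNA-binding partner of cleaved Notch, which is also a repressor in its absence. It was measured at 10.39, 10.24, 10.27, 10.44 and 10.41 in exposed arrays 1, 2, 3, 4 and 6, against naive values from 10.39 to 10.57 with a median of 10.43. Exposed arrays 1, 2 and 3 lay below all naive arrays, array 1 by less than the rounding shown, and arrays 4 and 6 lay among them. The difference was -0.10 ± 0.05 (SE; 95% limits -0.21 to 0.01), and the second probeset of Rbpj gave -0.10 ± 0.08 (SE).

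Hes1, a repressor of the basic helix-loop-helix family and a classical direct target, gave 8.91, 8.27, 9.29, 9.12 and 8.96 in exposed arrays 1, 2, 3, 4 and 6, against a lowest value of 8.77, a median of 9.32 and a highest value of 9.59 in naive arrays. Only exposed array 2 lay below all naive arrays. The difference was -0.35 ± 0.17 (SE; 95% limits -0.72 to 0.02), and it was -0.19 without exposed array 2. Hes1 varied most within groups of the 10 genes, with an SD of 0.34, above that of 97.6% of genes over the dim mark; Jag1 followed with 0.33 (97.5%).

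Dtx1, a ubiquitin ligase of the Deltex family that binds Notch and is a target in lymphocytes, gave 9.63, 9.54, 9.93, 9.72 and 9.97 in exposed arrays 1, 2, 3, 4 and 6, against naive values from 9.93 to 10.05 with a median of 10.03. Exposed arrays 1, 2 and 4 lay below all naive arrays, and arrays 3 and 6 reached the naive range. The means were 9.76 ± 0.19 (SD, n = 5) in exposed and 10.00 ± 0.06 (SD, n = 6) in naive cells. The difference was -0.25 ± 0.07 (SE; 95% limits -0.41 to -0.08), which did not pass over all genes (limma adjusted p = 0.151), and the second probeset of Dtx1 gave -0.27 ± 0.09 (SE). It was -0.13 without exposed arrays 1 and 2, and -0.16 with the red pulp macrophage list mean as a covariate. Marginal zone B cells are known for high Dtx1. Of the 4 genes listed for marginal zone or follicular B cells 3 lay above the dim mark, with list means from 6.29 to 6.53 in exposed and from 6.30 to 6.46 in naive arrays, and none passed the test. Its members differed in direction. Cr2 averaged 6.17 in exposed and 6.51 in naive cells (difference -0.34, limma adjusted p = 0.0748), with 4 of 5 exposed arrays below all naive arrays. S1pr3, under the mark, differed by 0.32 (0.383), and Cd1d1 and Fcer2a each by 0.01. The part of such cells in the level of Dtx1 was not tested.

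**Figure D2:**
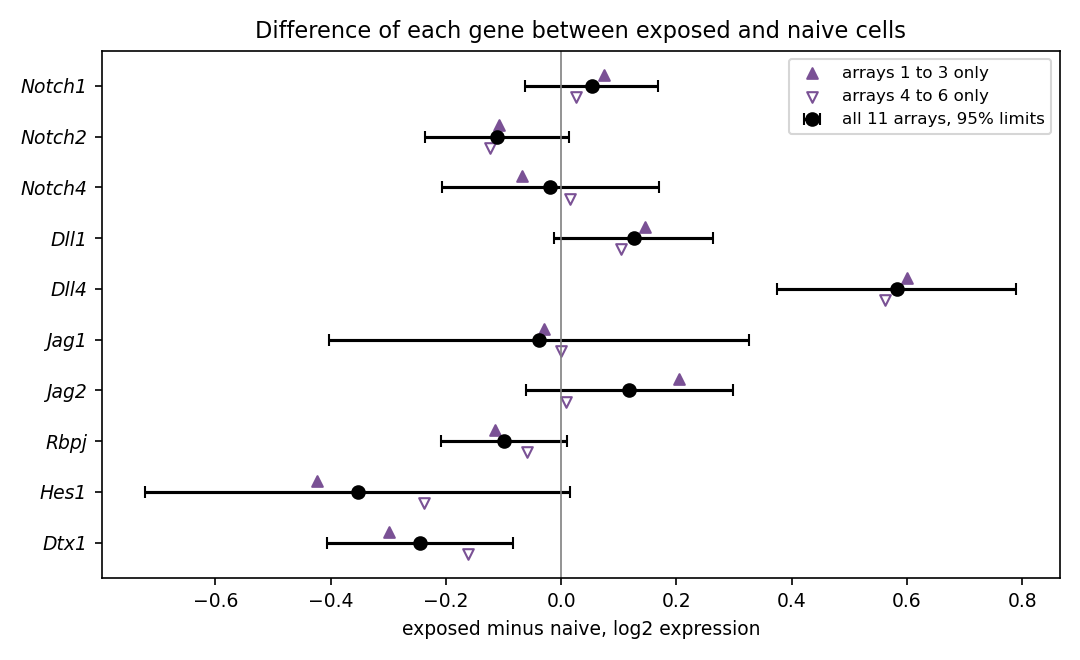
Difference in log2 expression, exposed minus naive (x axis), for each of the 10 genes (rows), with 95% limits from the fit over all 11 arrays (black) and the differences within arrays 1 to 3 (filled triangles) and arrays 4 to 6 (open triangles). Dll4 is at 0.58 (0.60 and 0.56 in the 2 sets), Dtx1 at -0.25 and Hes1 at -0.35 with wide limits.

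Promoters are shown for Dll4, whose arrays separated by group, and for Dtx1, the target whose unadjusted 95% limits left out 0. The windows hold 250 bases before and 50 after the RefSeq start site (GRCm38.p6): chr2:119325534-119325833 on the plus strand for Dll4 and chr5:120711620-120711919 on the minus strand for Dtx1. Capitals mark matches to CACGNG on either strand, a simplified form of the sites bound by HES and HEY repressors.
Dll4: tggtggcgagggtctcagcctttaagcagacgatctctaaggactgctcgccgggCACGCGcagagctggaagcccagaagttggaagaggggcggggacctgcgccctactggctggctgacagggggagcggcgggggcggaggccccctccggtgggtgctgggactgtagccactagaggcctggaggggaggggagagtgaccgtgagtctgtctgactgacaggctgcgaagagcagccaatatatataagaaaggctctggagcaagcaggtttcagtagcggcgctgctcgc
Dtx1: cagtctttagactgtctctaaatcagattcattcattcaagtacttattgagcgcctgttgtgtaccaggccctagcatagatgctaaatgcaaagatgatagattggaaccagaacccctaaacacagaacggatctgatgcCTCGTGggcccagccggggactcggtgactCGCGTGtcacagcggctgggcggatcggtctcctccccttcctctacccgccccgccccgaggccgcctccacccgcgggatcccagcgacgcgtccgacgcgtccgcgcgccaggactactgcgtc
The single match of Dll4 starts at base 56 of its window, and those of Dtx1 at bases 144 and 174. Of the 10 genes 9 had a promoter in the RefSeq table, with 11 windows in all. CACGNG was found in 7 of these 11 windows, for 6 of the 9 genes, and in 27.5% of 32851 promoter windows of the table. TGGGAA, the core bound by RBPJ, was found on either strand in 2 of the 11 windows, the overlapping pair of Rbpj, and in 25.6% of all windows. TTGCNNAA, a simplified C/EBP site, was found in 0 of the 11 windows and in 10.8% of all windows. These matches are descriptions of letters and not of binding.

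The number sets and the variation within groups were not used to list the genes. Between arrays 4 to 6 and arrays 1 to 3, 0 of the 10 genes passed in limma, against 3.3% of all genes. Their limma adjusted p ran from 0.252 (Rbpj) to 0.983 (Dll4). A limma interaction of group and number set passed for 0 of 10 members and 0% of all genes. At an unadjusted p under 0.05 it gave 0 of 10 members and 4.25% of all genes. At such shares, a count of 0 among 10 genes does not show that the number sets are alike for them. The differences between exposed and naive cells had the same sign in both sets for 9 of 10 genes, the exception being Notch4. These signs are parts of the comparison known when the genes were listed, so their agreement is a description and not a test.

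With group means removed, the 10 genes gave 45 pairs, whose correlation over the 11 arrays was tested by exact permutation within groups (86400 arrangements, two-sided). By Pearson's r, 0 of 45 pairs passed after Benjamini-Hochberg adjustment and 7 had an unadjusted p under 0.05. By Spearman's rho, 1 pair passed: Notch1 ran against Hes1 with rho = -0.96 (exact p = 0.000231, adjusted p = 0.0104), where r was -0.69 (exact p = 0.0160, adjusted p = 0.238). That r was -0.90 within the 6 naive arrays, -0.89 without exposed array 2, and -0.53 without naive arrays 1 and 2, the arrays farthest out in Notch1. The range of Notch1 behind it is narrow, from 6.37 to 6.59.

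Dll4 ran against Hes1 with r = -0.75 and rho = -0.78 (exact p = 0.0132 and 0.0144, adjusted p = 0.238 and 0.161). Hes1 and Dtx1 ran together with r = 0.69 and rho = 0.66 (exact p = 0.0165 and 0.0497, adjusted p = 0.238 and 0.279). For the first pair r was -0.77 within naive arrays, -0.52 without exposed array 2, and -0.31 without naive array 2 and exposed array 2. Its size thus depends on those arrays. For the second pair r was 0.81 within naive arrays and 0.42 without naive array 1 and exposed array 2. The arrays left out together were those farthest out in Dll4 and in Hes1. Leaving them out narrows the range of that gene, which by itself can lower r. Jag1 correlated with Hes1 at 0.73 and with Dtx1 at 0.74, and without exposed array 2 at 0.32 and 0.51, so these rest largely on that array. With the means of the number sets removed as well, r was -0.77 for Dll4 with Hes1, 0.68 for Hes1 with Dtx1 and -0.69 for Notch1 with Hes1. The part of cell mixture in these values was not tested.

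**Figure D3:**
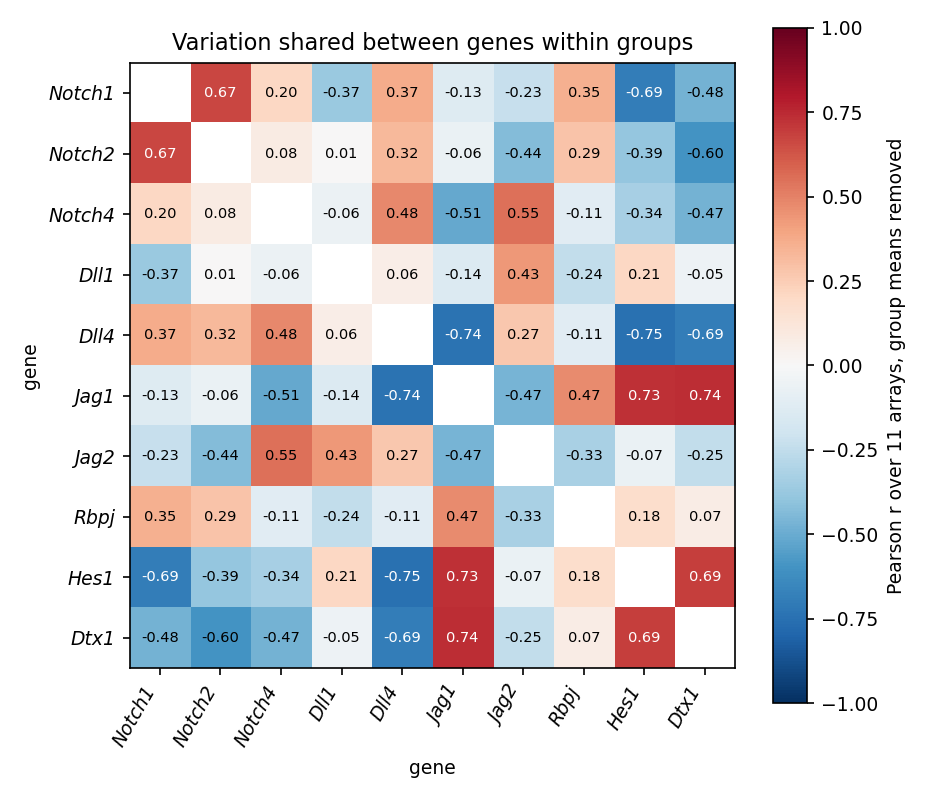
Pearson correlation of each pair of the 10 genes over 11 arrays after group means were removed (red positive, blue negative, number in each cell). Jag1, Hes1 and Dtx1 are positive with each other, and Dll4 is negative with all of them (-0.74, -0.75 and -0.69). By this r 0 of 45 pairs passed after adjustment. Without exposed array 2 the r of Dll4 was -0.41 with Jag1, -0.52 with Hes1 and -0.47 with Dtx1. In the same fit, r was 0.32 for Jag1 with Hes1, 0.51 for Jag1 with Dtx1 and 0.45 for Hes1 with Dtx1.

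For the gene with the largest absolute difference among the receptors, among the ligands, and among Rbpj and the targets as 1 role, the genes most like it over the 11 arrays were listed, again with group means removed and among the 12619 genes above the dim mark. Notch2 was followed by Myo9a (r = 0.91), Hectd4 (0.90) and Prpf8 (0.90). Dll4 was followed by Igsf3 (r = 0.95), Timm10b (0.91) and Tmem165 (0.90), and Hes1 by Olfr901, Insig1 and Mir1938 (0.91 each). These are the highest r of 12619 genes over few arrays and are given without a test.

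The other genes of the pathway were taken from lists made by function, with earlier results of these data known, so their counts are a description. Of 67 such genes 63 were measured, of which Il2ra rose and Neurl3 fell (limma, adjusted p under 0.05 over all genes), that is 1 higher and 1 lower, beside 0.879% and 0.546% of all genes. Their median difference was 0.01, and that of all genes was 0.01. Of 6 genes that mark splenic dendritic cell subsets with high or low ESAM, and are not pathway genes, Cx3cr1 rose and Clec4a4 fell, beside the same shares of all genes.

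Of the 9 genes measured for cutting the receptor 0 passed the adjusted threshold, beside 1.42% of all genes. At that share, a count of 0 in so small a list, here and below, does not show that its genes are unchanged. The 9 include the sheddases Adam10 (difference -0.01) and Adam17 (0.13). Psen2, Ncstn and Psenen of the gamma-secretase complex differed by -0.004, -0.01 and 0.07. The largest was Aph1c, a further subunit, at -0.15 ± 0.11 (SE; adjusted p = 0.667). Of the 8 genes that add sugars to Notch, among them the Fringe genes Lfng (0.06) and Mfng (-0.07), 0 passed in the main fit. Poglut1, which adds glucose to Notch repeats, averaged 10.11 ± 0.06 (SD, n = 5) in exposed and 9.83 ± 0.21 (SD, n = 6) in naive cells, a difference of 0.29 ± 0.09 (SE; adjusted p = 0.144). Blocking on the number set gave 0.30, with an adjusted p of 0.0489, and of the alternatives run only this one passed.

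Of 16 measured nuclear partners, among them the coactivators Maml1 (-0.12) and Ep300 (-0.06) and the corepressor gene Spen (-0.06), 0 passed. The largest difference was that of the coactivator Maml3, -0.28 ± 0.10 (SE; adjusted p = 0.216). Of the 5 other receptors and ligands 0 passed, and 3 lay above the dim mark. Dlk1, a Delta-like protein without the canonical ligand domain, had the largest difference, 0.05 ± 0.06 (SE; adjusted p = 0.833).

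**Figure D4:**
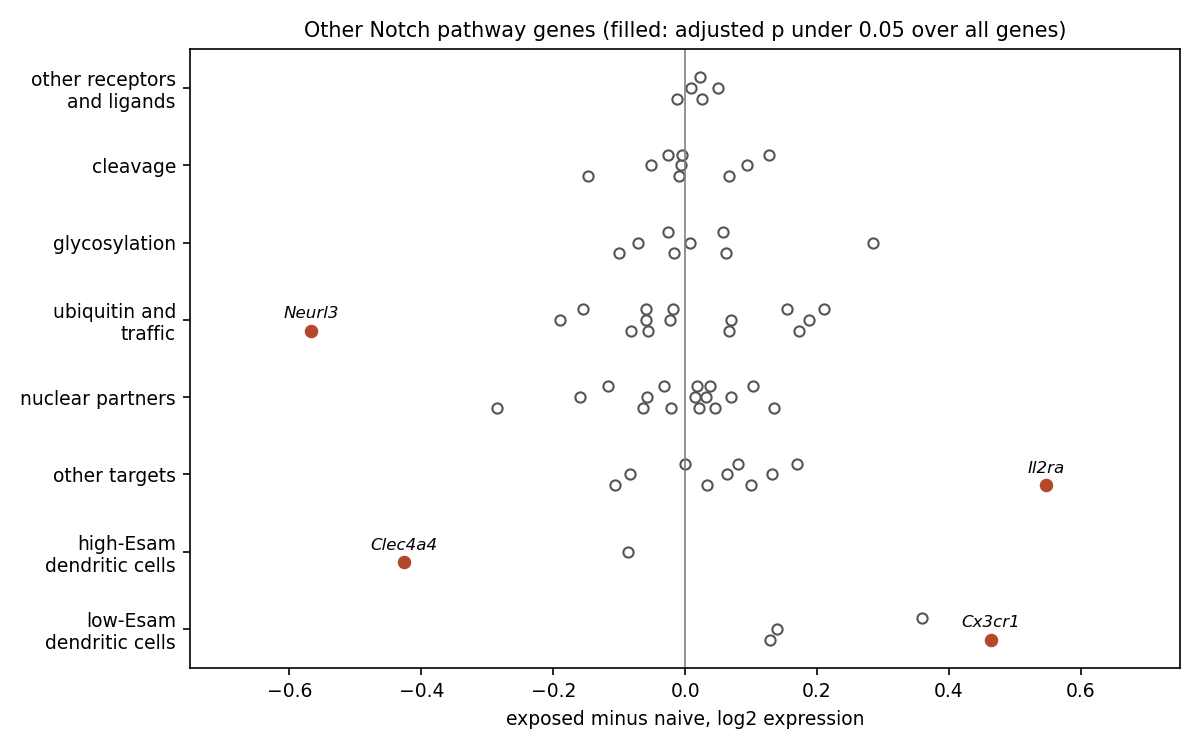
Difference in log2 expression, exposed minus naive (x axis), of each measured gene of 8 lists around the Notch pathway (rows; vertical scatter only separates points). Filled points passed an adjusted p under 0.05 over all genes: Neurl3 (-0.57), Il2ra (0.55), Clec4a4 (-0.43) and Cx3cr1 (0.46).

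Neurl3 was the only one of 15 measured genes for ubiquitin ligation and traffic that passed, beside 1.42% of all genes. It encodes a ubiquitin ligase with the neuralized domain, a family known in the fly for ligand endocytosis; a role of Neurl3 itself in Notch signalling is not assumed here. Exposed arrays 1, 2, 3, 4 and 6 gave 12.06, 12.02, 11.69, 11.75 and 11.74, against naive values from 12.23 to 12.68 with a median of 12.40. The groups did not overlap. It fell by 0.57 on the log2 scale (SE 0.09, limma adjusted p = 0.00928), by 0.56 among arrays 1 to 3 and by 0.61 among arrays 4 to 6, and it passed with every single array left out. The Deltex genes Dtx2, Dtx3 and Dtx4 differed by 0.19, -0.15 and 0.17 and did not pass, nor did Itch (-0.19) and Numb (0.07).

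Among 10 further genes reported as targets in other cells, Il2ra alone passed, beside 1.42% of all genes. It encodes the alpha chain of the interleukin 2 receptor and is a target in developing T cells. It was measured at 7.29, 7.31, 6.91, 7.26 and 6.80 in exposed arrays 1, 2, 3, 4 and 6, against naive values from 6.23 to 6.80 with a median of 6.56. The lowest exposed and the highest naive array nearly touched. It rose by 0.55 ± 0.12 (SE; limma adjusted p = 0.0389), and missed the threshold in 8 of 11 fits with 1 array left out: naive 2, 3, 4, 5 or 6, or exposed 1, 2 or 4, at most at 0.117 without exposed array 2. It also missed it after quantile normalisation (0.51, 0.0594), after scaling to a common 75th percentile (0.51, 0.0648), without exposed arrays 1 and 2 (0.42, 0.237), and with the B cell (0.48, adjusted p = 0.0957), endothelial (0.49, 0.0980) or red pulp macrophage (0.40, 0.151) list mean in the fit. No fit held the T cell list mean, and the part of T cells in the value of Il2ra was not tested. Nrarp (0.17, limma adjusted p = 0.310), Hey1 (0.08, 0.826) and Myc (0.13, 0.759) did not pass.

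Genes of the 2 splenic subsets that differ in ESAM were read beside the receptors. Clec4a4, a lectin of type 2 cells found on the subset with high ESAM, gave 10.24, 10.58, 10.57, 10.45 and 10.83 in exposed arrays 1, 2, 3, 4 and 6, against naive values from 10.87 to 11.08 with a median of 10.97. The groups did not overlap, and it fell by 0.43 on the log2 scale (SE 0.08, limma adjusted p = 0.0250). It missed the threshold without naive array 1, 2, 4 or 6, or exposed array 2, 3 or 4 (adjusted p at most 0.0631, without exposed array 2), and with the title or characteristic number as a replicate block (0.0504 and 0.0858). Without exposed arrays 1 and 2 it was -0.34 (0.0931), and with the B cell, endothelial or macrophage list mean in the fit it was -0.38, -0.37 and -0.35 (0.0589, 0.0636 and 0.0985). Esam itself averaged 7.60 ± 0.24 (SD, n = 5) in exposed and 7.68 ± 0.23 (SD, n = 6) in naive cells, a difference of -0.09 ± 0.12 (SE; adjusted p = 0.852).

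All 4 genes listed for the subset with low ESAM had positive differences, beside 11874 of all 22180 genes. Of the 4, 1 passed, beside 0.879% of all genes called higher. The list was made with earlier results of these data known, so these counts are a description. Cx3cr1, the fractalkine receptor gene, gave 8.08, 8.32, 8.10, 8.26 and 8.16 in exposed arrays 1, 2, 3, 4 and 6, against naive values from 7.56 to 7.92 with a median of 7.70. The groups did not overlap, and it rose by 0.46 ± 0.07 (SE; limma adjusted p = 0.00866), with 0.54 among arrays 1 to 3 and 0.39 among arrays 4 to 6. It passed with every single array left out. Csf3r, the receptor gene for granulocyte colony-stimulating factor, differed by 0.36 ± 0.09 (SE; adjusted p = 0.0589), without overlap between the groups, and passed with the number set blocked (0.35, 0.0401), among genes above the dim mark alone (0.0368), and without exposed array 4 (0.0491) or 6 (0.0347). Ccr2 (0.14) and Clec12a (0.13) did not pass. These genes are also expressed by macrophages and monocytes. With the red pulp macrophage list mean in the fit, Cx3cr1 was 0.48 (limma adjusted p = 0.0249) and Csf3r was 0.23 (0.181). Without exposed arrays 1 and 2, Cx3cr1 was 0.45 (0.0409) and Csf3r was 0.23 (0.267), and Csf3r differed by 0.51 among arrays 1 to 3 and by 0.15 among arrays 4 to 6. Of the 8 red pulp macrophage markers 7 had positive differences, beside 11874 of all 22180 genes, and none passed. The largest were those of C1qb (1.06), C1qc (0.96) and C1qa (0.95), and Adgre1 had the negative one (-0.18).

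**Figure D5:**
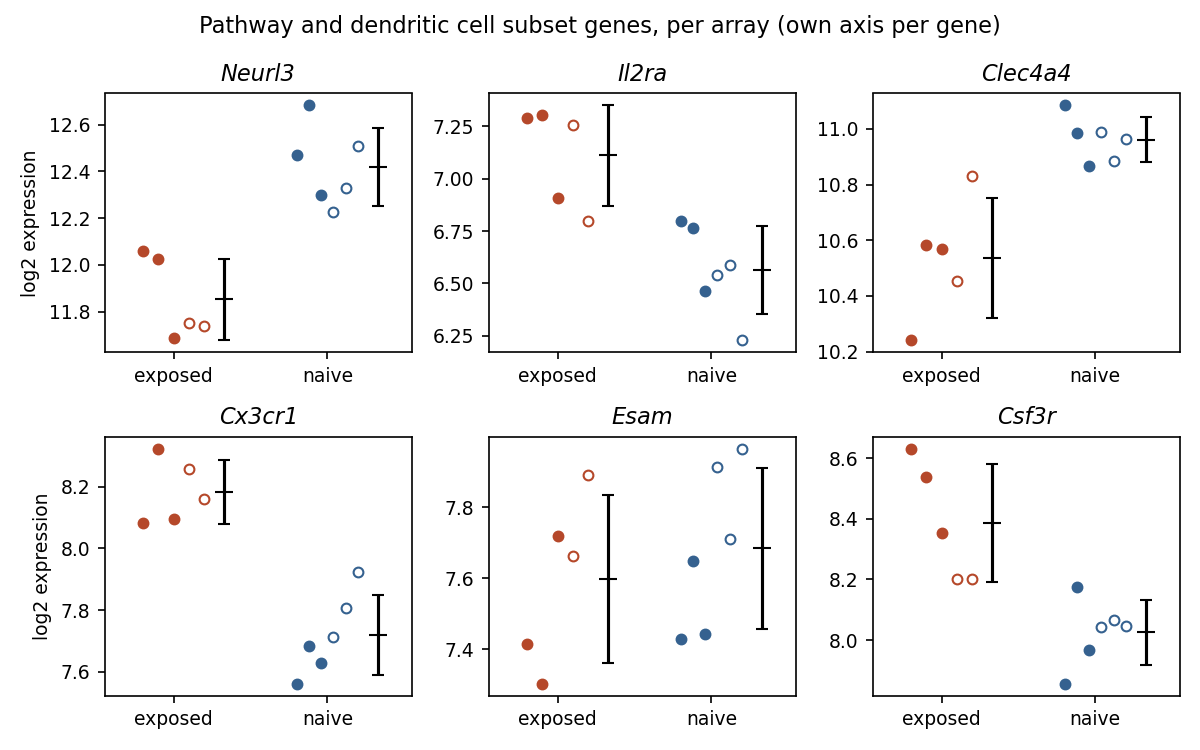
Log2 expression (y axis, a separate scale for each gene) of Neurl3, Il2ra, Clec4a4, Cx3cr1, Esam and Csf3r on each exposed (red, left) and naive (blue, right) array; filled circles are arrays numbered 1 to 3, open circles arrays numbered 4 to 6, and bars show the mean ± SD. Exposed arrays lie below naive arrays for Neurl3 and Clec4a4, above them for Il2ra, Cx3cr1 and Csf3r, and among them for Esam.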

How the data were processed

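Per the labels, RNA of sorted cells was amplified with a whole-transcript kit, biotin-labelled and hybridised. The deposited values are log2 expression of probesets, which the authors computed by RMA, per the submitters' processing notes; its version and the genome build are not given in the sources used here. Of 41801 listed probesets 7329 are blank on every array. A given probe table names 1 gene for 23521 of the other 34472, several for 1814 and none for 9137. For 45.7% of genes at least 2 arrays hold values equal to 5 decimals, the cause of which was not tested.

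Groups were compared as exposed minus naive on 22180 genes with limma 3.58.1 (lmFit, eBayes with trend) in R 4.3.3, with Benjamini-Hochberg adjustment over all genes; the fit was tested on simulated data. No dim gene was removed. The number sets (titles 1 to 3 and 4 to 6) hold 3 exposed and 3 naive, and 2 exposed and 3 naive arrays. Genes were named by rule: the 10 members; pathway genes that passed with or without the number set as a block; and the largest difference of each list in which none passed. Other pathway genes are examples of their role, picked after their values were seen. Promoter windows on mouse chromosome 18 were left out. Some listed genes are not reported here. The members and lists were chosen with earlier results of these data known. Alternatives were other limma settings, scalings, filters and probeset rules, blocks, marker covariates and arrays left out.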

Additional observations from a re-analysis of the deposited data

Results flagged for a closer look

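An array far from the rest of its group was looked for in 64 sets of 5 or 6 values (the 10 genes, the other named genes and the marker lists); chance flags about 1 set in 20, and 3 were found, none of them in the 10 genes. The plasmacytoid marker mean was 8.39 in naive array 2, with the next naive array at 8.12. The B cell marker mean was 7.47 in naive array 1, with the next at 7.24. The endothelial marker mean was 5.88 in naive array 2, with the next at 6.00; this array also had the lowest naive value of Dll4, 5.53, and the highest of Hes1, 9.59.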

How the results depend on the processing

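Among the 10 genes, Dll4 passed in limma in all 11 fits with 1 array left out and in 26 of 29 alternatives. Its differences ran from 0.50 to 0.63 and its limma adjusted p from 0.00819 to 0.229. The alternatives refit the comparison known when the genes were listed, on largely the same arrays. Their count is therefore not independent support for a change. The count of the 10 that passed was 0 with the characteristic number as a replicate block (Dll4 0.57, adjusted p = 0.0577), 0 in arrays 1 to 3 alone (0.180) and 0 in arrays 4 to 6 alone (0.229), sets with fewer arrays.

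Over all genes, 316 passed; 617 did with the number set as a block, 182 with the characteristic number as a replicate block (341 with the title number), 11 and 5 within each number set alone, 197 and 199 with the endothelial and macrophage list means, 99 without exposed arrays 1 and 2, and 104 (without exposed array 2) to 395 (without exposed array 6) with 1 array left out. The split of 195 higher and 121 lower became 168 and 223 with a common 75th percentile, 195 and 167 after quantile normalisation, and 149 and 114 after median centring; the median of all genes moved by less than 0.1. Of the wider pathway and ESAM subset genes 4 passed, against 0 in each number set alone, 2 with each of the 3 marker covariates, 2 without exposed arrays 1 and 2, and 2 to 5 with 1 array left out. Between the number sets 731 passed, 460 after quantile normalisation and 132 (without exposed array 6) to 725 with 1 array left out.

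Signs turned for genes that did not pass. Notch4 was 0.0161 in arrays 4 to 6 and -0.0760 to 0.0226 with 1 array left out. Jag1 was 0.0057 with the title number as a replicate block, 0.0590 with the macrophage covariate, 0.211 without exposed arrays 1 and 2, and -0.156 to 0.158 with 1 array left out. Dlk1 was -0.0102 in arrays 4 to 6, -0.0303 with the macrophage covariate and -0.0310 without exposed arrays 1 and 2. Esam was 0.0179 and 0.0728 in those last fits. Unless stated, the cause was not tested.

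Same-numbered arrays correlated at 0.0880 to 0.231 after group means were removed, and 2 of 5 exposed arrays correlated best with their own number, so the numbers were not taken as pairs. Leaving out exposed arrays 1 and 2 was chosen after the data had been seen. Dll1 and Dll4 lie near the dim mark, which limits what their values can show.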
